A study of Sus scrofa with 13 samples.

Results

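The genes described here encode the enzymes and cofactors that place cytosine methylation on DNA and those that take it off: DNMT1, UHRF1, DNMT3A, DNMT3B and DNMT3L as writers, and TET1, TET2 and TET3 as erasers. They were taken by gene symbol from the deposited pig gene table, where all 8 were found among 28232 genes. The RNA-seq libraries were made from pooled pig embryos of 5 groups. Hatched blastocysts, which have left the zona pellucida, came from in vitro fertilisation (IVF, n = 3 libraries) and from development in vivo (n = 2). Blastocysts with a cavity that had not hatched came from IVF (n = 3) and from in vivo development (n = 2), and 4-cell embryos came from IVF (n = 3). No treatment or genotype is named for any group. The labels give no pool size, breed, embryo age, animal, day of collection or fertilisation round. Origin and stage, hatching included, therefore cannot be told apart from any of these where they went with them. P-values reflect only how much these libraries vary, which may be a technical spread.

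DNA methylation is copied onto the new strand after replication by DNMT1, which UHRF1 brings to half-methylated CpG sites. DNMT3A and DNMT3B add methyl groups at unmarked sites, and DNMT3L, which has no catalytic activity of its own, assists them in mouse germ cells. TET enzymes oxidise 5-methylcytosine as a route to its removal. In mammalian embryos methylation is largely lost after fertilisation and laid down again around implantation. The libraries measured messages only, not methylation, protein or enzyme activity.

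Libraries held 33259311 to 39273867 counts, and 14221 to 16735 genes had a count in a library. Levels of a gene are given as CPM, its count scaled to the total of the library, and 3 counts correspond to 0.0764 to 0.0902 CPM. Levels of different genes are compared as the authors' FPKM, which is scaled for transcript length, unless a rank or share is given by count. Sums of CPM over several genes are not scaled for length. Log2 fold changes are given with their standard error. A gene was called where the adjusted p of the edgeR quasi-likelihood test was under 0.05. One of the in vivo hatched libraries carries no replicate number among the counts and is called unnumbered, and no FPKM was joined to it. Marker sums followed the labelled stages: 8 oocyte genes summed to 16099 to 22889 CPM in 4-cell embryos and to at most 18.8 CPM in every later library, and 8 trophectoderm genes summed to 99.1 to 859 CPM in 4-cell embryos and to 20773 to 38337 CPM later. Sperm markers summed to at most 3.52 CPM in any library.

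In the IVF series from 4-cell embryos to blastocysts and hatched blastocysts, most writers and TET3 fell and TET1 rose. DNMT1, DNMT3A, DNMT3B, UHRF1 and TET3 were lower and TET1 was higher in blastocysts than in 4-cell embryos, which is 6 of the 7 genes that could be tested, against 56.3% of all genes tested (25.7% higher and 30.6% lower). The same 6 genes were called in hatched blastocysts against 4-cell embryos, where 56.6% of all genes were called (25.7% higher and 30.9% lower). A call was thus common among all genes in these comparisons. DNMT3L had too few counts to be tested. Over the 7 genes the median log2 fold change was -4.68 in blastocysts and -4.65 in hatched blastocysts, beside -0.23 and -0.24 over all genes tested.

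**Figure D1:**
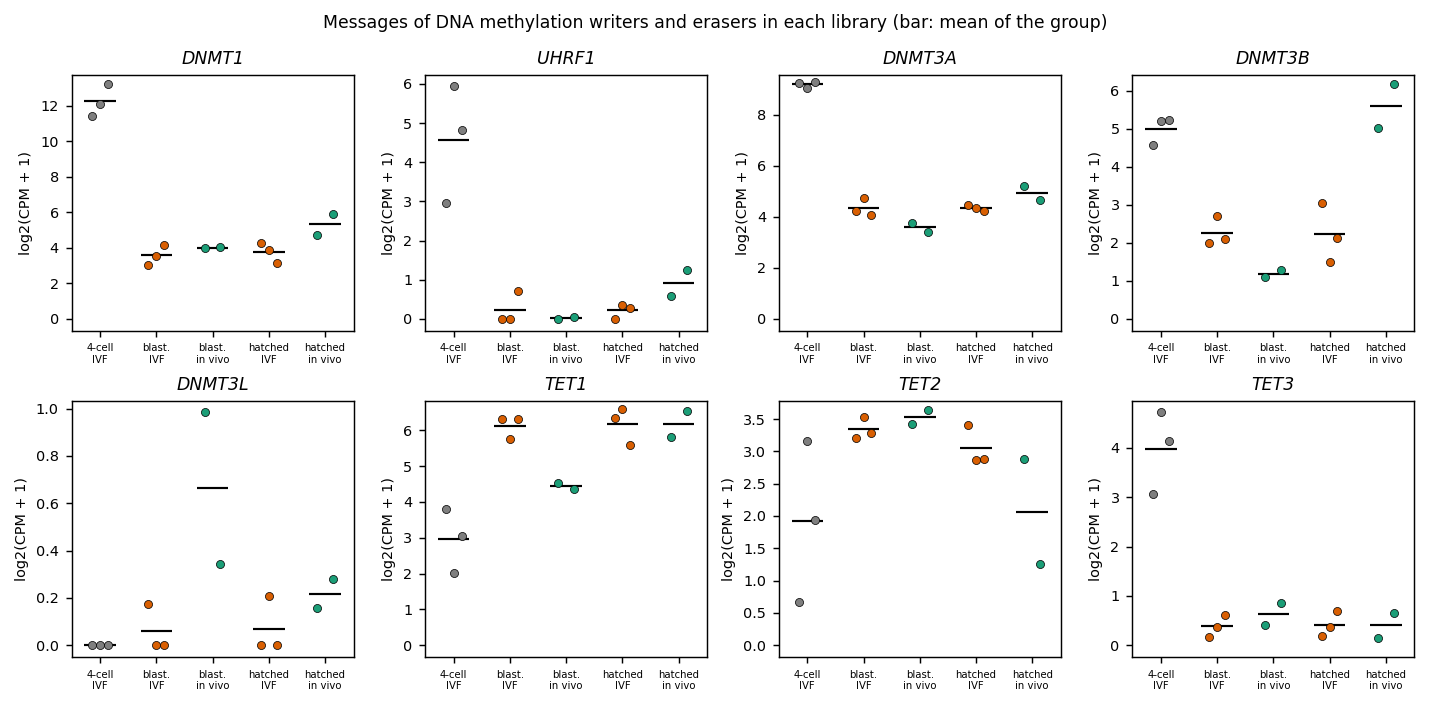
Levels of the 8 genes as log2(CPM + 1) in each of the 13 libraries (points), with the group mean as a bar, for IVF 4-cell embryos (grey), IVF embryos (orange) and in vivo embryos (green). DNMT1, DNMT3A, UHRF1 and TET3 were highest in all 3 4-cell libraries, TET1 was lowest there, and DNMT3B was high in 4-cell and in vivo hatched libraries.

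DNMT1, the maintenance methyltransferase (gene 606746, chromosome 2, 68981564 to 69040364, build Sscrofa11.1), was the most abundant of the 8 messages in 4-cell embryos. Its levels there were 2775, 4337 and 9722 CPM, which was 0.277%, 0.434% and 0.972% of all counts and placed it 19th, 12th and 5th among genes by count. Blastocysts from IVF had 7.26, 10.5 and 16.7 CPM, and hatched blastocysts from IVF had 18.0, 13.7 and 7.84 CPM. Every 4-cell library stood far above every later one, although the 4-cell libraries themselves differed widely. On the log2 scale the change was -8.79 ± 0.84 in blastocysts against 4-cell embryos (adjusted p = 8.21e-05), a 444-fold lower level, and -8.54 ± 0.83 in hatched blastocysts (adjusted p = 8.68e-05). Without 4-cell library 3, which had the most DNMT1, these values were -7.91 and -7.67, and both remained called.

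UHRF1, the partner that recognises half-methylated CpG sites (gene 100511003, chromosome 2, 73898061 to 73937727), had 6.72, 60.4 and 27.5 CPM in 4-cell embryos. In IVF blastocysts it had 0, 0 and 0.632 CPM, and in IVF hatched blastocysts 0, 0.285 and 0.221 CPM. It thus had no count in IVF blastocyst libraries 1 and 2 and in IVF hatched library 1. The other later IVF libraries had only 8 to 23 counts. The fold change was -7.03 ± 1.95 in blastocysts (adjusted p = 0.0135) and -7.27 ± 1.98 in hatched blastocysts (adjusted p = 0.0122). All 23 of its counts in IVF blastocysts came from library 3, and without that library the fitted change, then set against no counts at all and so no bound, was -13.03. Leaving out 4-cell library 2, the highest, gave -6.15 and -6.39, and without the single libraries of the later groups the other values lay between -7.90 and -6.35. All of these were called.

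DNMT3A, which methylates unmarked DNA (gene 100037301, chromosome 3, 113501972 to 113609148), was the steadiest of the abundant 4-cell messages, with 616, 533 and 626 CPM. Blastocysts from IVF had 17.6, 25.6 and 15.7 CPM and hatched blastocysts from IVF had 21.1, 19.5 and 17.9 CPM. The 4-cell libraries lay far above all later IVF libraries, with little spread within each group. The log2 fold changes were -4.68 ± 0.35 (adjusted p = 3.11e-05) and -4.65 ± 0.35 (adjusted p = 2.93e-05).

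DNMT3B, the other enzyme of this kind (gene 100302109, chromosome 17, 36345715 to 36386076), had 22.8, 36.1 and 36.3 CPM in 4-cell embryos. In IVF blastocysts it had 2.95, 5.55 and 3.30 CPM, and in IVF hatched blastocysts 7.32, 1.81 and 3.39 CPM. Its ranges in 4-cell and later IVF embryos did not overlap. The log2 fold change was -2.81 ± 0.62 in blastocysts (adjusted p = 0.00471) and -2.69 ± 0.62 in hatched blastocysts (adjusted p = 0.00557), and the second was -3.35 without IVF hatched library 1. DNMT3L, the cofactor without catalytic activity (gene 100621554, chromosome 13, 207119025 to 207141990), had no count in any 4-cell library and at most 6 counts in any later IVF library. No fold is given for it, since both sides lay at or near the level of 3 counts.

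TET1 (gene 100625859, chromosome 14, 71675671 to 71812732), the TET enzyme known from pluripotent cells in mouse, had 13, 3.04 and 7.30 CPM in 4-cell embryos. It had 78.2, 53.3 and 78.1 CPM in IVF blastocysts and 80.5, 95.9 and 47.2 CPM in IVF hatched blastocysts. Every later IVF library was above every 4-cell library. The log2 fold changes were 3.45 ± 0.55 (adjusted p = 0.000944) and 3.60 ± 0.55 (adjusted p = 0.000796), about 11-fold and 12.2-fold higher.

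TET3 (gene 100520484, chromosome 3, 68918896 to 69020406), the enzyme that oxidises methylcytosine in the mouse zygote, had 7.37, 25.5 and 16.6 CPM in 4-cell embryos. All 6 later IVF libraries had 0.127 to 0.607 CPM. Its change was -5.52 ± 0.94 in blastocysts on the log2 scale (adjusted p = 0.00136) and -5.34 ± 0.93 in hatched blastocysts (adjusted p = 0.00153), and the second was -5.95 without IVF hatched library 3. TET3 overlaps an uncharacterised gene, LOC102163719, which had 0.859 to 5.49 CPM in 4-cell embryos and at most 0.196 CPM later, and whether strand was used in counting is not given in the sources used here.

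TET2 (gene 100521465, chromosome 8, 116413253 to 116546976) had 0.592, 7.94 and 2.82 CPM in 4-cell embryos. It had 8.25, 10.6 and 8.71 CPM in IVF blastocysts and 9.60, 6.26 and 6.40 CPM in IVF hatched blastocysts. Only 4-cell library 2 lay within the range of the hatched libraries and close to the blastocysts. Libraries 1 and 3 of the 4-cell embryos lay below every later IVF library. The log2 fold changes, 1.48 ± 0.82 (adjusted p = 0.151) and 1.21 ± 0.81 (adjusted p = 0.228), were not called. Without 4-cell library 2 they were 2.61 (adjusted p = 0.0279) and 2.34 (adjusted p = 0.039).

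The median over all genes in these stage comparisons moved with the scaling, to -0.50 and -0.55 with total counts alone. Relative to the all-gene median of the TMM scaling, the changes in blastocysts against 4-cell embryos were -8.56 for DNMT1, -6.80 for UHRF1, -5.29 for TET3, -4.44 for DNMT3A, -2.57 for DNMT3B and 3.69 for TET1. Relative to it in hatched blastocysts, they were -8.30, -7.02, -5.10, -4.40, -2.45 and 3.85 in the same order of genes. The calls of the 7 genes were the same under TMM, RLE and total-count scaling.

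Set per length, the make-up of each family changed with stage. By FPKM, DNMT1 made up 82.5% ± 8.21 of the summed DNMT messages in 4-cell embryos (SD, n = 3), then 39.3% ± 13.8 in IVF blastocysts and 41.8% ± 10.8 in IVF hatched blastocysts. DNMT1 ranked 127th, 74th and 31st of all genes by FPKM in the 4-cell libraries and no higher than 4786th in any later library. TET3 made up 44.8% ± 20.6 of the summed TET messages in 4-cell embryos, with 22.5%, 63.0% and 49.1% in the 3 libraries, and at most 1.53% in any later library. TET1 made up 43.6% ± 30.7 in 4-cell embryos, 92.0% ± 2.65 in IVF blastocysts and 93.6% ± 2.13 in IVF hatched blastocysts. The 4-cell libraries differed in which TET message led: TET1 in library 1, with 75.5%, and TET3 in libraries 2 and 3.

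**Figure D2:**
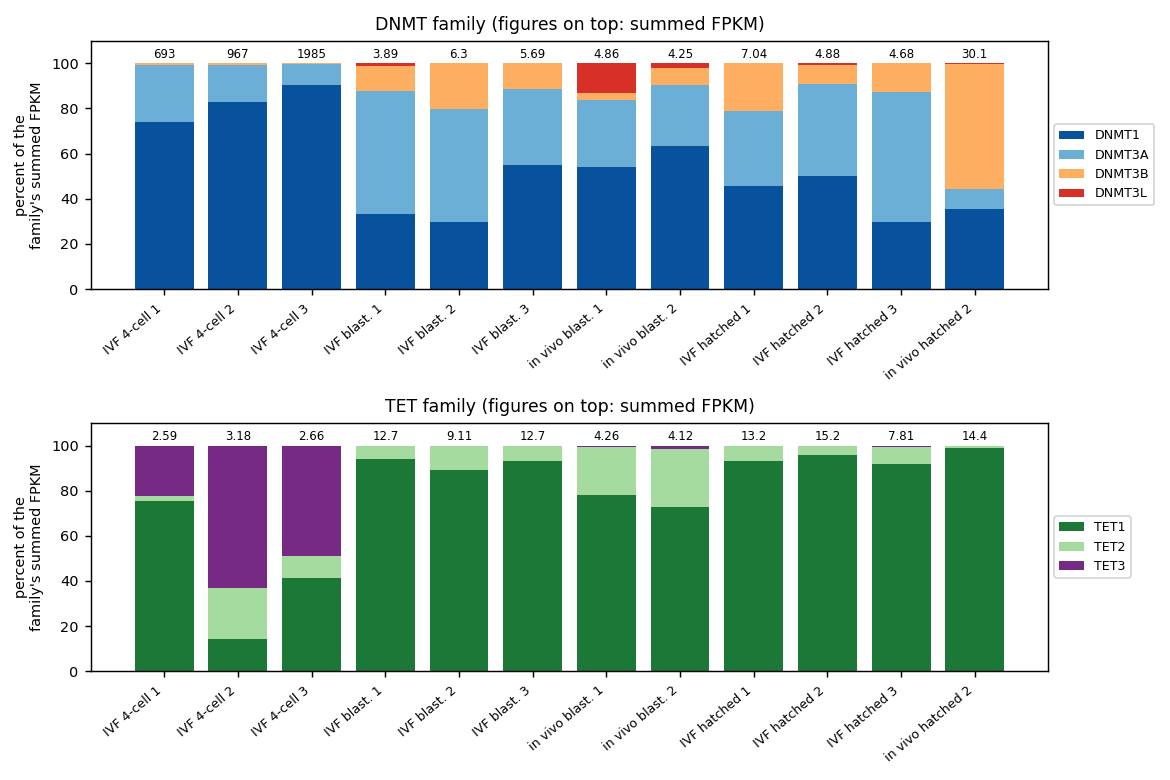
Share of each gene in the summed FPKM of the DNMT family (top) and the TET family (bottom) in every library, with the summed FPKM above each bar. DNMT1 takes most of the 4-cell DNMT bars, DNMT3B takes the largest part of the bar of in vivo hatched library 2, the in vivo hatched library with an FPKM, and TET1 takes 72.8% to 98.8% of every TET bar after the 4-cell stage.

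Other genes of the pathway also changed between the 4-cell stage and IVF blastocysts. Of all genes tested in this comparison 56.3% were called, 25.7% higher and 30.6% lower, so a call was common in any list. Among 9 partners of maintenance methylation, 5 were lower and 2 higher, with a median log2 fold change of -3.14: UHRF2, the paralogue of UHRF1 (-6.30), USP7, a deubiquitinase that binds DNMT1 (-4.03), PCNA, the replication clamp (-3.65), and CDCA7, which acts with the remodeller HELLS (-3.14), were lower. Among 6 tested TET partners 4 were lower and 1 higher, including SIN3A, a corepressor scaffold (-7.16). Among 10 protectors of imprints and maternal methylation 7 were lower and none was higher, including the oocyte genes KHDC3L, with no count in any IVF blastocyst library and 104 CPM on average in 4-cell embryos, and NLRP7, with 0.0339 CPM on average in IVF blastocysts and 73.1 CPM in 4-cell embryos. In contrast 8 of 9 genes listed around the TET cofactor 2-oxoglutarate (cofactor genes) were higher and none was lower, including IDH3A (2.83) and IDH1 (3.33). This list also holds SDHA and SDHB, whose enzyme acts on succinate and does not make or use 2-oxoglutarate. In the methyl donor cycle AHCY (5.93) was among the higher genes and none of the 7 tested genes was lower. All genes named in this comparison of lists had an adjusted p of at most 0.00296.

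In hatched blastocysts, IVF embryos had less DNMT3B and DNMT1 message than in vivo embryos. These 2 of 8 genes were lower and none was higher, against 11.8% of all genes called in either direction, 4.88% lower and 6.96% higher. The median log2 fold change of the 8 genes was -0.996, beside 0.04 over all genes tested.

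DNMT3B had 7.32, 1.81 and 3.39 CPM in IVF hatched blastocysts, against 31.7 CPM in the unnumbered library and 71.1 CPM in library 2 of in vivo hatched blastocysts. The ranges were apart, with the lowest in vivo library above the highest IVF library. The change was -3.53 ± 0.54 on the log2 scale (adjusted p = 0.00242), an 11.6-fold lower level in IVF embryos. It was -2.91 without in vivo library 2 (adjusted p = 0.0289) and -4.21 without IVF library 1 (adjusted p = 0.00188), and it was called under each of 17 alternatives.

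DNMT1 had 18.0, 13.7 and 7.84 CPM in IVF hatched blastocysts, against 25.6 and 58.4 CPM in in vivo hatched blastocysts. The ranges did not overlap, but the in vivo libraries differed from each other more than the nearest libraries of the groups did. The log2 fold change was -1.56 ± 0.44 (adjusted p = 0.0417), just inside the threshold. The call was lost in 7 of 17 alternatives: it was -0.93 (adjusted p = 0.413) without in vivo library 2, -1.84 (0.0537), -1.64 (0.0892) and -1.28 (0.12) without IVF hatched libraries 1, 2 and 3, and -1.56 (0.0539) without IVF blastocyst library 2, which enters the same fit.

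The other 6 genes were not called between hatched blastocysts of the 2 origins. TET1 had 47.2 to 95.9 CPM in IVF libraries and 55.1 and 93.1 CPM in in vivo libraries, with a log2 fold change of 0.12 ± 0.34. DNMT3A had a change of -0.54 ± 0.31 (adjusted p = 0.29). UHRF1 had 0, 11 and 8 counts in IVF libraries and 18 and 52 counts in in vivo libraries, a change of -2.36 ± 2.10 (adjusted p = 0.51), and TET3 had at most 0.607 CPM in both groups. TET2 had 9.60, 6.26 and 6.40 CPM in IVF libraries, against 6.35 CPM in the unnumbered and 1.39 CPM in library 2 of in vivo embryos, a change of 0.99 ± 0.54 (adjusted p = 0.263). Its in vivo libraries disagreed, and without the unnumbered library the change was 2.54 (adjusted p = 0.00987).

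Among the partners of maintenance methylation, 3 of 9 were also lower in IVF hatched blastocysts and none was higher, with a median of -0.74. HELLS, the chromatin remodeller that aids methylation in mouse, averaged 20.8 ± 7.70 CPM (SD, n = 3) in IVF and 161 ± 109 CPM (n = 2) in in vivo hatched blastocysts (-2.85 ± 0.39, adjusted p = 0.00139). UHRF2 averaged 23.2 CPM in IVF and 49.9 CPM in in vivo hatched blastocysts (-1.02 ± 0.27, adjusted p = 0.0322), and LIG1, the replicative DNA ligase, averaged 6.68 CPM in IVF and 23.5 CPM in in vivo embryos (-1.73 ± 0.47, adjusted p = 0.0372). Of 13 tested histone modifiers that steer the DNMT3 enzymes only KDM2B was called, and it was lower (-1.82 ± 0.42, adjusted p = 0.0185). Of the removal genes that act after oxidation UNG (-1.22) and GADD45B (-0.99) were lower among 15. Of the cofactor genes IDH1 was higher (0.93 ± 0.21, adjusted p = 0.0164) among 9, and no TET partner, methyl donor gene or germline gene silenced by methylation was called among 7, 8 and 13 tested.

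Markers of hypoblast, the extraembryonic layer that lines the cavity, moved with DNMT3B. Of 8 hypoblast markers 7 were lower in IVF than in in vivo hatched blastocysts and none was higher, including COL4A2 (-4.12), PDGFRA (-4.70), SOX17 (-4.36) and GATA4 (-1.86). Their summed level was 184, 132 and 212 CPM in IVF hatched libraries, against 248 CPM in the unnumbered and 832 CPM in library 2 of in vivo hatched blastocysts, and no marker was at 0. The in vivo library with the most hypoblast marker message was also the one with the most DNMT3B and DNMT1. The 7 epiblast markers summed to 958 to 1210 CPM in IVF and 412 to 585 CPM in in vivo hatched libraries, with TDGF1 (2.19) and POU5F1 (1.13) higher in IVF. Yet the median log2 fold change of the 6 tested epiblast markers was -1.12, beside 0.04 over all genes tested, so the sum and the median went opposite ways. None of 8 trophectoderm markers was called, and their sums overlapped (22507 to 31964 CPM in IVF, 20773 to 31988 CPM in in vivo libraries). Cumulus markers summed to 0 to 1.58 CPM in IVF and 9.94 to 26.4 CPM in in vivo hatched libraries, mostly VCAN, and stroma markers to 2.85 to 10.1 CPM and 12.1 to 54.8 CPM. In such pooled embryos, fewer cells of a type and less RNA per cell cannot be told apart, and the part of these cell types in the DNMT3B and DNMT1 results was not tested.

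**Figure D3:**
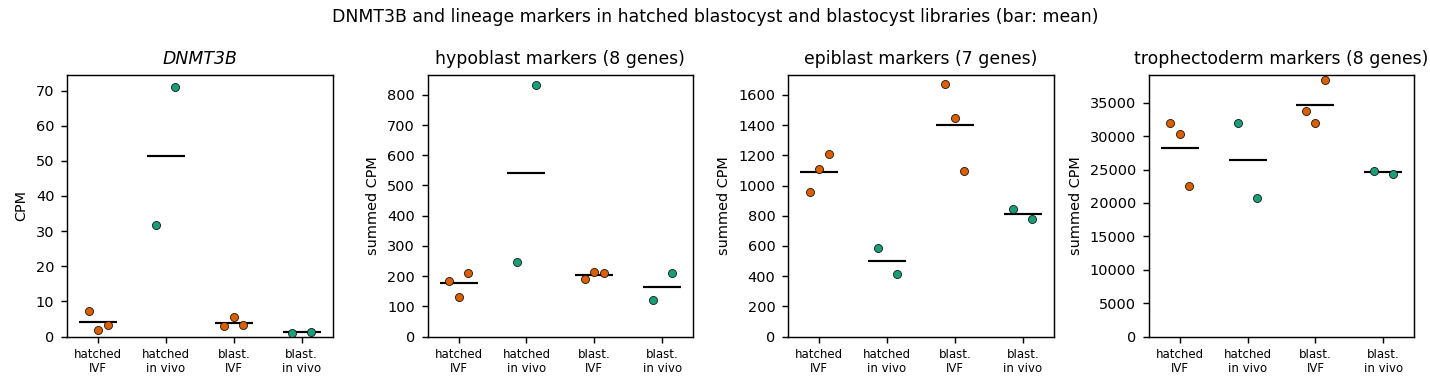
DNMT3B (CPM) and the summed CPM of hypoblast, epiblast and trophectoderm markers in the 10 hatched blastocyst and blastocyst libraries (points; bar: group mean), IVF in orange and in vivo in green. DNMT3B and hypoblast markers are both highest in in vivo hatched library 2, at 71.1 and 832 CPM.

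In blastocysts that had not hatched, IVF embryos had more TET1 message than in vivo embryos. It was the 1 of 8 genes that was called, against 10.8% of all genes, 6.09% higher and 4.74% lower. The median log2 fold change of the 8 genes was 0.27, beside 0.05 over all genes tested.

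TET1 had 78.2, 53.3 and 78.1 CPM in IVF blastocysts, against 21.9 and 19.8 CPM in in vivo blastocysts. Both in vivo libraries were below all IVF libraries, and they lay close together. The log2 fold change was 1.71 ± 0.36 (adjusted p = 0.0151), 3.26-fold higher in IVF embryos. With only 1 in vivo library left the change had the same size but was not called, at 1.90 (adjusted p = 0.0721) without in vivo library 1 and 1.55 (adjusted p = 0.0598) without library 2. By FPKM TET1 made up 92.0% ± 2.65 of the TET messages in IVF blastocysts (SD, n = 3) and 75.5% ± 3.77 in in vivo blastocysts (n = 2), and TET2 made up 7.74% ± 2.61 and 23.4% ± 3.13.

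DNMT3B had 2.95, 5.55 and 3.30 CPM in IVF blastocysts and 1.13 and 1.43 CPM in in vivo blastocysts, a log2 fold change of 1.60 ± 0.57 that was not called (adjusted p = 0.0973). DNMT3A had 17.6, 25.6 and 15.7 CPM in IVF and 12.7 and 9.62 CPM in in vivo blastocysts, a change of 0.77 ± 0.33 (adjusted p = 0.149). The ranges of both genes were apart by a small margin, with IVF above in vivo. DNMT1 (-0.43 ± 0.45) and TET2 (-0.23 ± 0.52) overlapped between the origins. DNMT3L had 5, 0 and 0 counts in IVF and 38 and 10 counts in in vivo blastocysts, where it reached its highest level of any group at 0.978 and 0.269 CPM, and its change of -3.85 ± 2.23 was not called (adjusted p = 0.289). UHRF1 had 23 counts in IVF blastocysts, all of them in library 3, and 1 in the in vivo libraries. The ratio of these pooled counts was 15.27, with a 95% counting interval of 2.48 to 629. That interval covers counting error only and not the spread between libraries. UHRF1 was not called (adjusted p = 0.396), and without IVF library 3 its log2 fold change was -2.29.

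Of the wider pathway a few genes differed in blastocysts. AHCY, which clears the S-adenosylhomocysteine left by methylation, was higher in IVF (1.64 ± 0.33, adjusted p = 0.0124), as were MBD3, a subunit of the NuRD complex (0.91), and KDM1B, a histone demethylase needed for maternal imprints in mouse (2.50). USP7 (-1.03), OGT, a TET-binding glycosyltransferase (-1.31), GADD45B (-1.19), the germline gene HORMAD1 (-2.11) and 3 of 9 cofactor genes, SDHA (-0.95), SDHB (-0.99) and IDH2 (-2.12), were lower. Of the same 9 cofactor genes 1 was higher. Hypoblast markers summed to 192 to 215 CPM in IVF and 120 to 209 CPM in in vivo blastocysts, with COL4A2 higher (1.87) and PDGFRA lower (-2.32) in IVF. Epiblast markers summed to 1093 to 1672 CPM in IVF and 780 to 847 CPM in in vivo blastocysts, with TDGF1 higher (3.18) and KLF4 lower (-2.24). Against these sums, the median log2 fold change of the 6 tested epiblast markers was -0.98, beside 0.05 over all genes tested. The part of cell make-up in the TET1 result was not tested.

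**Figure D4:**
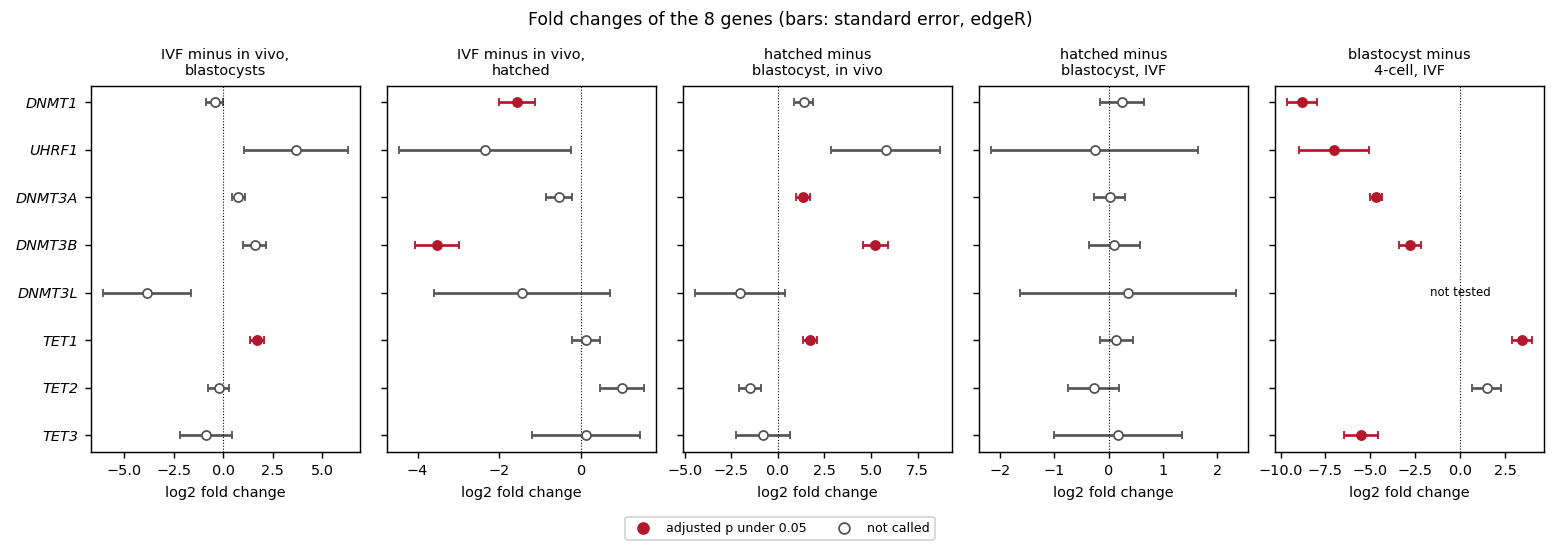
Log2 fold changes of the 8 genes with their standard error, filled red where the adjusted p was under 0.05, for IVF against in vivo embryos before and after hatching, for hatched against unhatched blastocysts of each origin, and for IVF blastocysts against 4-cell embryos. DNMT3B is red in the in vivo hatching panel (5.23) and close to 0 in the IVF hatching panel (0.11). The x axes differ between panels.

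Hatched in vivo blastocysts had more DNMT3B, TET1 and DNMT3A message than in vivo blastocysts. These 3 of 8 genes were higher and none was lower, against 14.3% of all genes called, 6.96% higher and 7.39% lower. The median log2 fold change of the 8 genes was 1.36, beside -0.01 over all genes tested.

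DNMT3B had 31.7 and 71.1 CPM in hatched and 1.13 and 1.43 CPM in unhatched in vivo blastocysts. Both hatched libraries stood far above both unhatched ones. Their difference was 5.23 ± 0.69 on the log2 scale (adjusted p = 0.00126), 37.6-fold, and it was 4.62 (adjusted p = 0.0067) without hatched library 2. By FPKM the share of DNMT3B in the summed DNMT3A and DNMT3B messages was 86.2% in hatched library 2, against 9.78% and 21.9% in unhatched in vivo blastocysts. By read count this share was 47.0% in the unnumbered hatched library and 74.6% in hatched library 2. The read-count shares in unhatched in vivo blastocysts were 8.21% and 12.9%.

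TET1 had 55.1 and 93.1 CPM in hatched and 21.9 and 19.8 CPM in unhatched in vivo blastocysts (1.73 ± 0.38, adjusted p = 0.0126). It was not called without hatched library 2 (1.38, adjusted p = 0.075) or without blastocyst library 2 (1.57, adjusted p = 0.0592). DNMT3A had 35.7 and 24.2 CPM in hatched and 12.7 and 9.62 CPM in unhatched in vivo blastocysts (1.34 ± 0.35, adjusted p = 0.0281). The call of DNMT3A was lost in 5 of 17 alternatives. Among these were the fits of only the 2 groups compared (1.37, adjusted p = 0.107) and of all 13 libraries (1.38, adjusted p = 0.152). The fits without the unnumbered hatched library (0.98) and without blastocyst library 2 (1.08) were also among them. For both genes the hatched libraries lay above the unhatched ones.

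DNMT1 had 25.6 and 58.4 CPM in hatched and 15.0 and 15.2 CPM in unhatched in vivo blastocysts, a change of 1.38 ± 0.50 that was not called (adjusted p = 0.0873) but was called without the unnumbered library (1.82, adjusted p = 0.0448). TET2 had 6.35 and 1.39 CPM in hatched and 9.75 and 11.4 CPM in unhatched in vivo blastocysts, a change of -1.50 ± 0.59 that was not called (adjusted p = 0.111). Without the unnumbered library it was -3.04 (adjusted p = 0.00586). UHRF1 had 70 counts in hatched and 1 in unhatched in vivo libraries, a ratio of 73.39 with a 95% counting interval of 12.75 to 2940. That interval pools the libraries of a group and leaves out the spread between them. UHRF1 was not called (adjusted p = 0.205). TET3 and DNMT3L stayed below 1 CPM in all 4 libraries.

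HELLS was higher in hatched in vivo blastocysts as well (161 CPM on average in hatched against 42.2 CPM in unhatched blastocysts, 1.82 ± 0.44, adjusted p = 0.0194), the only called gene of 9 maintenance partners. MBD3 (1.54), the methyl-CpG reader ZBTB33 (1.90) and KDM1B (2.75) were higher, and GADD45A (-2.01) was lower. Of 13 tested germline genes known to be silenced by promoter methylation in mouse, 3 were lower and none was higher: TEX19 (-4.53), DAZL (-5.04) and SYCP3 (-1.66). Of 9 cofactor genes IDH1 (-1.08), IDH2 (-2.75) and SDHB (-1.03) were lower and none was higher. Of 8 hypoblast markers 5 were higher and none was lower in hatched in vivo blastocysts, among them COL4A1 (5.45), COL4A2 (4.44), SOX17 (4.08) and GATA4 (2.75), with sums of 248 and 832 CPM in hatched and 120 and 209 CPM in unhatched libraries. Of 6 tested epiblast markers 1 was lower, KLF4 (-1.85), and none was higher, and the 7 epiblast markers in the table summed to 585 and 412 CPM in hatched and 847 and 780 CPM in unhatched in vivo libraries, without overlap. Of 8 trophectoderm markers 2 were lower, DAB2 (-1.11) and GATA3 (-1.13), and none was higher, with sums of 31988 and 20773 CPM in hatched and 24809 and 24305 CPM in unhatched libraries. The part of these cell types in the DNMT3B, TET1 and DNMT3A results was not tested.

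In IVF embryos none of the 8 genes was called between hatched and unhatched blastocysts. Their log2 fold changes lay between -0.27 and 0.36, all with an adjusted p of 1. Few genes were called at all in this comparison, 0.0451% of those tested, which is 7 genes by edgeR, all of them lower, with 594 genes at an unadjusted p under 0.05 and 49 genes called by DESeq2. DNMT3B had 7.32, 1.81 and 3.39 CPM in hatched and 2.95, 5.55 and 3.30 CPM in unhatched IVF blastocysts (0.11 ± 0.48), so the unhatched range lay inside the hatched range. DNMT3A (0.02 ± 0.28), TET1 (0.14 ± 0.30), DNMT1 (0.24 ± 0.40) and TET2 (-0.27 ± 0.47) also overlapped between the stages.

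The hatching change itself was compared between the origins by the interaction of stage and origin. DNMT3B differed, with a hatching change lower by 5.13 ± 0.80 on the log2 scale in IVF than in in vivo embryos (adjusted p = 0.00781), and it was the only 1 of 8 called, against 4.71% of all genes called, 1.93% lower and 2.79% higher. Without in vivo hatched library 2 the difference was -4.51 (adjusted p = 0.0273), and without IVF hatched library 1 it was -5.81 (adjusted p = 0.00491). TET1 (-1.59 ± 0.48, adjusted p = 0.0824), DNMT3A (-1.32 ± 0.45, adjusted p = 0.116), DNMT1 (-1.14 ± 0.64, adjusted p = 0.322) and TET2 (1.22 ± 0.75, adjusted p = 0.363) were not called, nor were UHRF1 (-6.04 ± 3.38, adjusted p = 0.321), DNMT3L (2.40 ± 3.14, adjusted p = 0.711) and TET3 (0.99 ± 1.86, adjusted p = 0.82), which had few counts. Without the unnumbered in vivo hatched library TET2 was called (2.77, adjusted p = 0.0248). By DESeq2 TET1 (-1.61, adjusted p = 0.0168) and DNMT3A (-1.32, adjusted p = 0.0459) were called as well. TET1 was also called by edgeR without the low-count filter (-1.59, adjusted p = 0.00268). In the wider pathway MBD3 (-1.39) and KDM1B (-3.41) had lower, and SDHB (1.38), IDH1 (1.21) and IDH2 (3.21) higher hatching changes in IVF. Hatching changes were also lower in IVF for 4 of 8 hypoblast markers, COL4A2 (-5.99), GATA4 (-2.58), SOX17 (-4.54) and COL4A1 (-6.14).

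Over all 5 groups, the mean levels of DNMT1 and DNMT3A were highest in 4-cell embryos and next highest in in vivo hatched blastocysts, and the ranges of these groups did not overlap. For DNMT3B in vivo hatched blastocysts (51.4 ± 27.8 CPM, SD, n = 2) and 4-cell embryos (31.7 ± 7.74 CPM, n = 3) shared the top with overlapping ranges, and in vivo blastocysts (1.28 ± 0.209 CPM, n = 2) were lowest. TET1 had overlapping ranges in IVF hatched (74.6 ± 24.9 CPM), in vivo hatched (74.1 ± 26.9 CPM) and IVF blastocyst libraries (69.9 ± 14.3 CPM), followed by in vivo blastocysts (20.8 ± 1.54 CPM) and 4-cell embryos (7.78 ± 4.998 CPM), each apart from its neighbour. TET2 varied least among the 7 genes above the lowest counts, and groups next to each other in the order of means all overlapped. Groups further apart in that order did not all overlap. In vivo hatched libraries (1.39 and 6.35 CPM) and 4-cell libraries (0.592 to 7.94 CPM) lay below all unhatched blastocyst libraries (8.25 to 11.4 CPM). For TET3 and UHRF1 only 4-cell embryos were apart from the group next in that order.

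The count and the FPKM of a gene together give the transcript length that the deposited FPKM assumed in each library, for the 12 libraries where both are known and a gene had at least 20 counts. For DNMT3A this length was 3538, 3385 and 3489 bases in the 4-cell libraries. It was 8095 to 8281 bases in IVF blastocysts, 8379 and 8784 bases in in vivo blastocysts, 6646 to 9787 bases in IVF hatched blastocysts and 9054 bases in in vivo hatched library 2. The implied length was thus shorter in every 4-cell library than in any later library. Of 7727 genes with enough counts in all 12 libraries, 73 (0.945%) varied at least as much as the 2.89-fold range of DNMT3A. Genes with 1 listed transcript varied little, and DNMT3A has 20. Among the 4968 genes with 2 or more listed transcripts, the 73 were 1.47%. DNMT3B varied 1.70-fold, between 4261 and 7246 bases, without a split by stage, since its 4-cell values of 4334 to 4353 bases lay beside 4261 bases in in vivo hatched library 2 and 4360 bases in IVF blastocyst library 2. DNMT1 (1.07-fold), TET2 (1.06-fold) and TET1 (1.02-fold) varied about as little as the median of the 7727 genes, 1.03-fold. Because of this, the FPKM of DNMT3A falls more steeply with stage than its count does, and shares that include DNMT3A carry that difference.

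**Figure D5:**
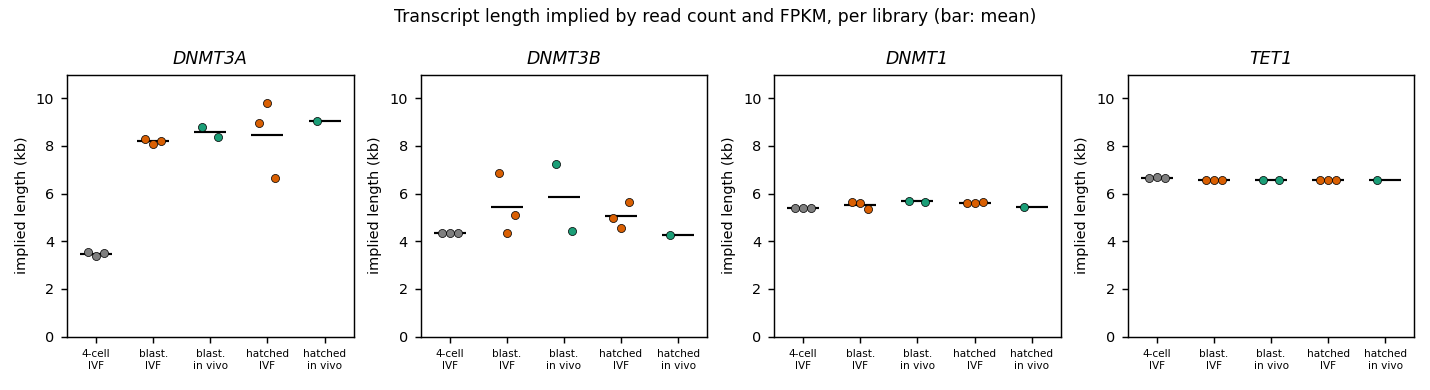
Transcript length in kilobases implied by read count and FPKM for DNMT3A, DNMT3B, DNMT1 and TET1 in the 12 libraries with both values (points; bar: group mean). DNMT3A lies between 3385 and 3538 bases in 4-cell embryos and between 6646 and 9787 bases in all later libraries, and DNMT1 and TET1 are level.

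The genes whose levels ran closest to each member over the 13 libraries were found by the root mean squared difference of log2(CPM + 1), each gene centred on its own mean, among genes with a mean of at least 5 CPM. DNMT1 was closest to KCNH1 (0.58), SPINK5 (0.60) and EPB41L2 (0.64), DNMT3A to SNRK (0.31), KALRN (0.38) and FAM107B (0.40), and UHRF1 to DIRAS2 (0.30), ASPHD2 (0.31) and AHSG (0.31). DNMT3B was closest to ZAR1 (0.62), an oocyte gene, then to ADD3 (0.67) and SPATS2 (0.71). ZAR1 averaged 13.5 CPM in hatched and had no count in unhatched in vivo blastocysts, and it averaged 22.5 CPM in 4-cell embryos. TET1 was closest to SMIM20 (0.44), RHOB (0.48) and TMEM38B (0.48), TET2 to DHRS1 (0.37), ENSA (0.43) and MPV17 (0.44), and TET3 to S100PBP (0.25), SCLT1 (0.27) and MELK (0.30). These differences compare with a spread of the members around their own mean of 3.54 for DNMT1, 2.11 for DNMT3A, 1.92 for UHRF1, 1.69 for DNMT3B, 1.54 for TET3, 1.42 for TET1 and 0.89 for TET2, so the matches of TET2 and DNMT3B were the loosest relative to their own spread. DNMT3L, with a spread of 0.26, lay too near 0 counts for a match to describe it. The closest genes depended on the distance used. Taken over the 5 group means instead, the 3 closest genes shared only 1 with those named for DNMT1, DNMT3B, UHRF1 and TET3. For DNMT3A, TET1 and TET2 they shared 0.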

How the data were processed

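The authors deposited 1 gene table on build Sscrofa11.1 with read counts, FPKM and TPM per library. The deposited counts are whole and unscaled. FPKM was scaled by the authors for transcript length and library size. The submitters' processing notes list RSEM, StringTie 1.3.1, HISAT2, Bowtie2 and fastp 0.18.0. Their roles, the handling of shared reads and the use of strand are not given in the sources used here. Unused were 14 value columns, all 13 TPM columns and 1 FPKM column. Among the genes 488 shared a symbol with another, none of them a member. Positions were looked up by gene number in the RefSeq annotation of that build. The in vivo hatched count column with no number was kept as a library, and the unused FPKM column was not joined to it.

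Counts of 33259311 to 39273867 per library were tested by edgeR's quasi-likelihood test (4.0.16, R 4.3.3). TMM scaling was used, genes with low counts were removed by edgeR's filter, and p-values were adjusted over all tested genes by the Benjamini-Hochberg method. The 10 blastocyst and hatched libraries formed 1 fit (15528 genes), and the 9 IVF libraries another (16312 genes). No pair of replicates was alike within counting error (lowest chi-square over its degrees of freedom 72.5), and all were kept. Counting intervals and the floor of 3 counts cover counting error only. The scripts were tested on simulated data. The alternatives were RLE and total-count scaling, no filter, DESeq2 1.42.0, each library left out, a replicate block, other sets of libraries in the fit, and, chosen after seeing the data, a minimum of 100 counts for implied lengths. The members and the 18 lists of other genes were chosen with earlier results of these data known. The text names all members, and of each list up to 4 called genes with the smallest p. KLF4, ZAR1 and other genes follow this rule or that of closest profiles. Of the listed genes, 2 that the rule names are not reported here.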

Additional observations from a re-analysis of the deposited data

Results flagged for a closer look

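The hatching change of DNMT3B differed between the origins, by -5.13 on the log2 scale (IVF minus in vivo, edgeR adjusted p = 0.00781). It was 0.11 in IVF and 5.23 in in vivo embryos. The difference had the same sign in all 16 alternatives, from -5.81 to -4.51, and was not called when all 13 libraries were fitted together (adjusted p = 0.0982). Hypoblast markers moved with it, and their part in it was not tested.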

How the results depend on the processing

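The 19 called changes of single members kept their direction in all 310 alternatives and their call in 291. The 12 called changes against 4-cell embryos lost no call, nor did DNMT3B between hatched origins or in in vivo hatching. The other 35 changes kept direction and side of the threshold in 533 of 577 alternatives, became called in 16 and changed sign in 28. DNMT3L against 4-cell embryos could be tested only without the filter on low counts and was not called.

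Counts of all genes called moved by over 1.5 times as follows. Between blastocyst origins (1681) there were 2749 without the filter, 2900 by DESeq2, 7 with all 13 libraries and 320 to 2022 with a library left out. Between hatched origins (1839) there were 2850, 2988, 92 and 513 to 2074. For in vivo hatching (2228) there were 3516 by DESeq2, 101 with all 13 libraries, 757 with only the 2 groups and 1064 to 2153 with a library left out. For IVF hatching (7) there were 162, 49, 0 and 4 to 7, and for the difference of hatching changes (732) 1855, 1879, 1 and 333 to 969 (without the filter, by DESeq2, with all 13 libraries, and with a library left out). The cause was not tested, and fits with all 13 libraries also take their spread from the 4-cell libraries.

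Members called between blastocyst origins (1) were 2 without the filter and by DESeq2, 0 with all 13 libraries and 0 to 1 with a library left out. Between hatched origins (2) they were 1 with all 13 libraries and 1 to 3 with a library left out. For in vivo hatching (3) they were 5 without the filter, 1 with all 13 libraries and 1 to 4 with a library left out, and for the difference of hatching changes (1) 2, 0 and 1 to 2, with 3 by DESeq2.

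Sign changes concerned values that were not called. With a library left out, UHRF1 lay between -2.29 and 5.97 for blastocyst origins, and TET1 between -0.17 and 0.47 and TET3 between -0.59 and 1.58 for hatched origins. For IVF hatching DNMT1 lay between -0.0352 and 0.61, DNMT3A between -0.11 and 0.27 (-0.011 with total counts), DNMT3B between -0.58 and 0.46, DNMT3L between -3.77 and 4.12, UHRF1 between -0.93 and 5.73, TET1 between -0.12 and 0.40 and TET3 between -0.47 and 0.75. For the difference of hatching changes DNMT3L lay between -1.76 and 6.17.

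The replicate numbers did not pair the samples: deviations of same-numbered IVF libraries correlated at -0.262 to 0.0315, others at -0.0606 to 0.192. With the replicate number as a block, which drops the unnumbered library, all genes called were 1028, 1145, 1146 and 347 in the order above without IVF hatching. With the block DNMT1 between hatched origins was -2.04 (adjusted p = 0.0729) and DNMT3A in in vivo hatching 0.99 (0.247), neither called, and TET2 was called in both (2.59 and -3.02). TET1 (-0.17) and TET3 (-0.75) between hatched origins and UHRF1 in IVF hatching (1.29) changed sign with the block.

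With TMM factors over all 13 libraries DNMT1 in in vivo blastocysts was 16.03 CPM and DNMT3A in 4-cell embryos 512 CPM. By read counts, TET3 shares were 0.396% (IVF blastocysts), 1.79% (in vivo blastocysts) and 0.592% (in vivo hatched library 2), TET1 shares 87.6%, 65.1%, 90.0% and 97.9% and TET2 shares 11.98%, 33.1%, 9.52% and 1.46% (IVF blastocysts, in vivo blastocysts, IVF hatched, in vivo hatched library 2), the DNMT3B share of both DNMT3 messages 16.5% in IVF blastocysts and 74.6% in in vivo hatched library 2, and the DNMT1 share 37.9% there. With total counts alone the all-gene median for the difference of hatching changes was -0.11. DNMT3L, UHRF1 and TET3 after the 4-cell stage are limited by depth.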
